A study of Caenorhabditis elegans with 2 samples.

Results

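The regions described here are the 210 places where UNC-98::GFP was found at promoters of genes on both strands at once, out of 937 regions in all. They were chosen by position, from lists past a threshold of 0.01 on the irreproducible discovery rate (IDR), a score of how well a region recurs. The conservative list of the series was taken first, and regions of the second series list and of the replicate 1 and replicate 2 lists were added in that order when they overlapped none already taken. A region was kept when its summit, the position of highest signal in the file, lay between 1000 bp upstream and 500 bp downstream of the 5′ end of a coding transcript on the plus strand and of another on the minus strand. The conservative list gave 165 of the 210, the second series list 28, replicate 1 alone 13 and replicate 2 alone 4. Another 382 regions lay in promoters of a single strand and 345 outside promoters.

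The data are ChIP-seq of *Caenorhabditis elegans* strain OP85 in 2 biological replicates, which form 1 group. The worms carried the transgene wgIs85, a tagged copy of *unc-98* fused to TY1, EGFP and 3xFLAG together with a working *unc-119*, in an *unc-119(ed3)* mutant background. Chromatin came from whole starved L1 larvae at 6 hours, was sonicated to fragments of 200 to 800 bp and was precipitated with an antibody against GFP. No untagged strain was analysed here, the whole animal mixes all tissues, and sequencing depth is unknown because the files give no counts of reads.

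The protein UNC-98 has C2H2 zinc fingers, sits where muscle filaments are anchored to the cell membrane, and has also been seen in muscle nuclei. In the compact worm genome many genes stand head to head, with their 5′ ends facing each other across a short stretch that serves both promoters. Many worm transcripts have a spliced leader joined to them, so an annotated 5′ end can be a splice site downstream of the true start of transcription. Distances below are to annotated 5′ ends.

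The sequences of 7 strong regions are printed as examples. By mean rank over the replicates they lie between places 3 and 15, so they may not be typical of the shared promoters as a whole. Each runs from 50 bases before to 50 bases after the summit, on the plus strand of the WBcel235 assembly (ce11), from RefSeq, with matches to the searched motifs in capitals. The windows are III:10759200-10759300, IV:17087536-17087636, II:11759395-11759495, V:14685725-14685825, IV:4750014-4750114, II:10248484-10248584 and III:13643667-13643767, in the order printed.
K01G5.10 and tasp-1: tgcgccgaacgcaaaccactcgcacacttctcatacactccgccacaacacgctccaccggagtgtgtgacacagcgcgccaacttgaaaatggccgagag
snx-13 and snr-1: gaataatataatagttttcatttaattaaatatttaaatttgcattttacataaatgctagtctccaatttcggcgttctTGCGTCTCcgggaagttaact
F44E5.4 and F44E5.5: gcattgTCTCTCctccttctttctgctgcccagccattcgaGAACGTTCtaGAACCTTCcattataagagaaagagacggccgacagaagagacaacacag
C47E8.4 and hsp-90: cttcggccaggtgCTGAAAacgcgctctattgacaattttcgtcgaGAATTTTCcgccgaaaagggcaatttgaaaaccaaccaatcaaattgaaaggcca
rpl-20 and Y17G9B.5: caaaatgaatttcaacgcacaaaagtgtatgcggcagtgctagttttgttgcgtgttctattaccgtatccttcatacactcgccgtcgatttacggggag
nrde-2 and atad-3: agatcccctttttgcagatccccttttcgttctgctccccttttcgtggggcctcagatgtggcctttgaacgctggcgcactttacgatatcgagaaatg
drr-2 and set-16: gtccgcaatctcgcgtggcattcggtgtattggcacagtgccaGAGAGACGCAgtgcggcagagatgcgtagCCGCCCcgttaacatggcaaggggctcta
The capitals mark TGCGTCTC in *snr-1*, GAGAGA and a pair of GAANNTTC matches in F44E5.4, GAANNTTC and TTTCAG in *hsp-90*, and TGCGTCTC with GAGAGA and GGGCGG in *set-16*, in either orientation. The other 3 windows hold none of the 17 motifs.

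Shared promoters took a larger part of the regions than of the sequence. They made up 35.5% of the 592 regions in promoters (95% Wilson interval 31.7 to 39.4%), whereas positions that lie in windows of both strands are 9.42% of all promoter window sequence, 3.01 of 31.9 Mb. The windows of 422 protein-coding genes held the 210 summits, 53.1% of the 795 genes with any summit, which are themselves 3.98% of the 19973 protein-coding genes. Of the 5943 genes whose window meets one of the other strand, which are the genes that could have a member, 7.10% had such a summit. A single gene on each strand was found for 196 regions, and 14 regions had 3 genes. The intervals cover the number of regions only and treat neighbouring regions as independent.

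Most summits lay in the gap between facing genes. For 189 of the 210 (90.0%) the summit stood between the 5′ end of the minus-strand gene and that of the plus-strand gene, for 19 it stood beyond one of them, and for 2 (*hecw-1* with *elmd-1*, and *clik-1* with T25F10.1) the transcripts overlapped at their 5′ ends. The windows reach farther upstream than downstream, which itself favours this position. The facing ends of the 189 pairs were 12 to 1695 bp apart, with a median of 499 bp. Their summits were a median of 162 bp from the nearer end, and 127 of the 189 (67.2%) were closer to the middle of the gap than to either end. A summit placed evenly along its gap would lie there as often as not, and the difference was not tested. The counts were 13 of 23 in gaps under 250 bp and 48 of 72 at 250 to 500 bp. They were 30 of 41 at 500 to 750 bp, 21 of 29 at 750 to 1000 bp and 15 of 24 in wider gaps. In the wider gaps the window rule itself holds summits toward the middle. The summits leaned to neither strand, with 103 of the 189 closer to the plus-strand gene.

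**Figure D1:**
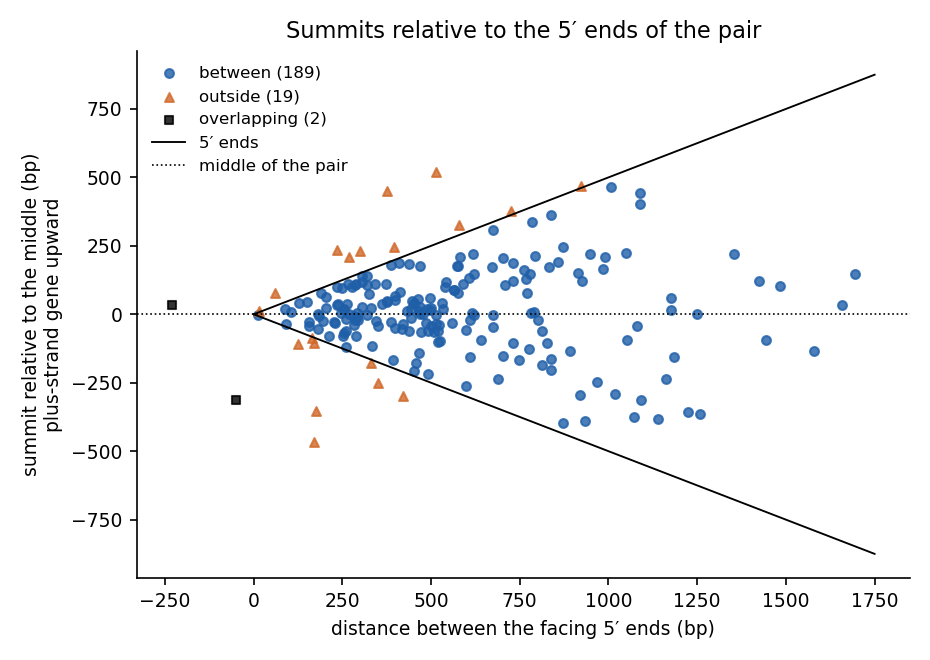
Summit position in base pairs relative to the middle of the pair, against the distance in base pairs between the facing 5′ ends, with 1 point for each of the 210 regions. The solid lines mark the 5′ ends, and 189 points lie between them; the 19 triangles lie beyond one end.

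The distance from the nearer end grew with the gap. In the 23 gaps under 250 bp the median was 41.0 bp, in the 72 gaps of 250 to 500 bp it was 132 bp, and in the 24 gaps of 1000 bp or more it was 434 bp. The middle of the gap is the upper bound of this distance, and the 1000 bp window sets a lower bound in the widest gaps. The growth therefore follows largely from the geometry and the rule. The median signals, over 5 classes from the narrowest to the widest (limits 250, 500, 750 and 1000 bp), were 63.4, 77.3, 66.3, 81.0 and 64.5 in replicate 1. In replicate 2 they were 39.4, 52.2, 45.4, 58.2 and 54.1. The narrowest class was lowest in both replicates, and the other 4 did not rise steadily with the gap. Signal is the deposited score of a region, whose scale is not stated. Ratios between replicates are therefore descriptions; the median over the whole ranked list was 12.7 in each.

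The narrowest gap, 12 bp, was that of F32D8.14 and F32D8.5 (V, 10894633 to 10894948), with a signal of 54.8 in replicate 1 and 27.9 in replicate 2. It was followed by C01G10.10 with C01G10.9 at 89 bp (73.9 and 37.6) and *ears-2*, a glutamyl-tRNA synthetase gene, with *uncp-18* at 92 bp (47.3 and 42.3). The widest were *anmt-2* with *nfm-1* at 1695 bp (53.1 and 38.3), *mif-4* with *ipla-6* at 1659 bp (53.8 and 72.8) and *ctns-1*, the cystinosin homologue, with *cdc-48.2* at 1578 bp (50.6 in replicate 1, no candidate in replicate 2). At both extremes the replicate 1 signals lay between 47.3 and 73.9, where the quartiles over all members were 50 and 103.

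Divergent gaps were set beside other gaps of the genome. Any summit of the 937 regions counted here, whether or not it was a member. Of all 11947 gaps of up to 2000 bp between neighbouring protein-coding genes, 2.95% held a summit. The share was 8.50% for divergent gaps (212 of 2495, interval 7.47 to 9.66%), 1.78% for tandem gaps, where both genes point the same way (130 of 7291, 1.5 to 2.11%), and 0.509% for convergent gaps, where 3′ ends face each other (11 of 2161, 0.284 to 0.909%). The order was the same in each replicate's own list, with 6.65%, 1.26% and 0.370% in replicate 1 and 4.09%, 0.809% and 0.231% in replicate 2. A tandem gap can lie within an operon, where the downstream gene has no promoter of its own, and a divergent gap holds 2 promoters to the 1 of a tandem gap; neither was corrected for.

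The share also differed with length within divergent gaps. The share with a summit was 5.08% up to 250 bp (19 of 374, 3.28 to 7.80%), 12.8% at 250 to 500 bp (68 of 533, 10.2 to 15.9%), 7.64% at 500 to 1000 bp and 8.11% at 1000 to 2000 bp. Per 100 kb of gap the first 2 classes were alike, with 31.0 and 34.7 regions, and the longer ones had 10.9 and 6.08. Tandem gaps of 250 to 500 bp held 7.56 regions per 100 kb. In the class of 250 to 500 bp the divergent share was 10.5% in replicate 1 and 6.57% in replicate 2, against 2.14% and 1.62% for tandem gaps.

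**Figure D2:**
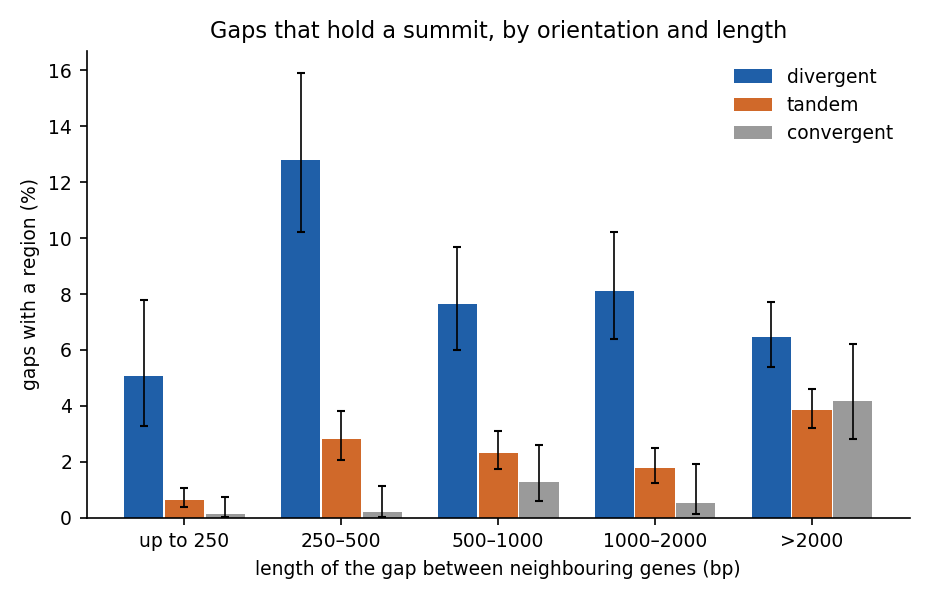
Percentage of gaps between neighbouring protein-coding genes that hold a summit, by orientation and length class in base pairs, with 95% Wilson intervals as bars. Divergent gaps are above tandem and convergent ones in all 5 classes, and are highest at 250 to 500 bp with 12.8%.

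Chromosomes held different numbers of shared promoters. There were 58 on chromosome III, 45 on I, 36 on II, 35 on IV, 32 on V and 4 on X. As a share of all promoter regions this was 44.6% on III and 8.89% on X, where 41 promoter regions were of a single strand. Divergent gaps of up to 2000 bp held a summit in 14.3% of 370 cases on III, 11.0% of 419 on I, 4.80% of 646 on V and 5.68% of 176 on X, the chromosome with the fewest such gaps. Any summit counts for a gap, so X had 10 divergent gaps with a summit beside its 4 members. The ratio of the divergent to the tandem share was above 1 on all 6 chromosomes, from 2.46 on II to 7.29 on III. The 4 regions on X were at *sec-15* and C28G1.2 (75 in replicate 1 and 53.1 in replicate 2), C27C12.1 and C27C12.4 (61.5 and 41.0), *csb-1* and F53H4.4 (46.0 and 40.9), and *dnj-14* and *glit-1* (55.1 in replicate 1 only).

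Replicate signals at the shared promoters ranged widely. A replicate's signal was read from its ranked list of candidates, which also holds regions below the threshold. In replicate 1 the 206 regions that overlapped a candidate ran from 19.3 to 304 with a median of 69.1 (quartiles 50 and 103). In replicate 2 the 204 with a candidate ran from 5.24 to 263 with a median of 48.6 (35.0 and 75.6). Promoters of a single strand had medians of 55.9 and 45, and all 937 regions 54.3 and 45. The quartiles of these groups overlapped in both replicates, and the gap between groups was larger in replicate 1.

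Each replicate's own list recovered part of the members. Of the 210, 161 (76.7%, 70.5 to 81.9%) overlapped the replicate 1 list, where the share of all 937 regions was 62.2%. In replicate 2 it was 99 (47.1%, 40.5 to 53.9%) beside 42.5% of all. Both lists held 85 (40.5%, 34.1 to 47.2%) beside 32.3% of all, and 35 were in neither. The members' share in replicate 2 was near that of all regions, and the difference stood mainly in replicate 1. Since the replicate lists helped to choose the regions, these counts are descriptive.

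Among the 200 members with a candidate in both replicates, replicate 1 was higher in 158, with a median log2 ratio of 0.485. The same median was 0.304 at promoters of a single strand and 0.0105 outside promoters. Members with high signal in replicate 1 tended to be high in replicate 2 (Spearman's rho 0.684 across regions, 0.511 over all regions), which share libraries and were partly chosen for recurring. The summits of the replicates lay a median of 16 bp apart, and 160 of 200 (80%) were within 50 bp, beside 75.2% of all regions.

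**Figure D3:**
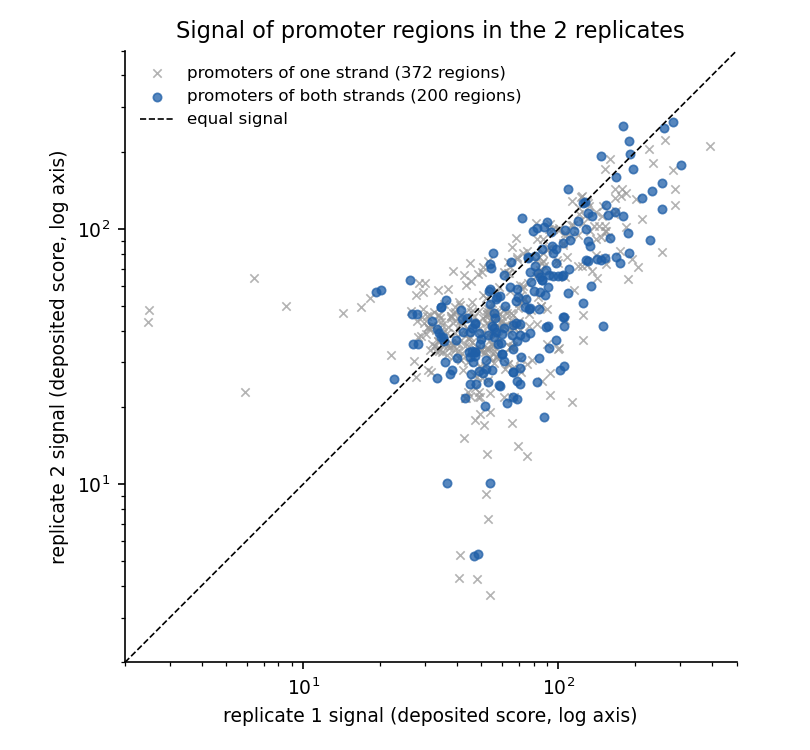
Replicate 2 signal against replicate 1 signal on log axes, with 1 point for each promoter region that has a candidate in both. Circles are the 200 shared promoters and crosses 372 promoters of a single strand; 158 of the circles lie on the replicate 1 side of the dashed line of equal signal.

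The 3 highest ratios of replicate 1 to replicate 2 were at *gna-1*, *pbs-1* and *pfd-1*. *gna-1*, a glucosamine-phosphate acetyltransferase gene that faces B0024.13, had 48.4 in replicate 1 and 5.32 in replicate 2. *pbs-1*, a proteasome core subunit gene that faces K08D12.3, had 46.8 and 5.24, and *pfd-1*, a prefoldin subunit gene that faces F01G4.6, had 54.2 and 10.1. All 3 came from the replicate 1 list. The 3 lowest ratios were at *snf-6* with *mtg-1* (19.3 and 56.5), *coq-5*, a ubiquinone synthesis gene, with *ufm-1* and *tomm-7* (20.1 and 57.5), and *apb-1*, a clathrin adaptor gene, with *mdt-19* (26.2 and 63.1). Of the 2 replicate lists, that of replicate 2 alone held the last 3; *snf-6* and *apb-1* were also in the second series list.

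Some pairs had a second region. Of the 204 pairs, 6 had 2 regions each. In 4 of them (*cyn-4* with *copz-1*, *sup-9* with *nspf-1*, *cdk-5* with *kel-3* and *zip-4* with *nol-58*) the weaker region had a series signal of 3.06 to 19.2, lay beside the stronger one and overlapped the same region of each replicate, so its replicate values are those of its neighbour. The other second regions had signal of their own. At *ecps-1* and *atx-2* the regions at III, 10460692 to 10460813, and III, 10461176 to 10461491, had 154 and 61.1 in replicate 1 and 124 and 65.8 in replicate 2. At F57C2.5 and *spat-1* they had 53.1 and 28.2 in replicate 1 and 25.2 and 35.3 in replicate 2, so the replicates ordered them differently.

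Heat shock and chaperone genes were among the strongest members. The facing Hsp70 genes F44E5.4 and F44E5.5 (II, 11759313 to 11759514) had 179 in replicate 1 and 254 in replicate 2, with the summits 2 bp apart. The printed window there holds 2 adjacent GAANNTTC matches, the paired inverted units of a heat shock element. *hsp-90*, the cytosolic Hsp90 gene, shares V, 14685677 to 14685839, with C47E8.4 and had 197 and 172, and one GAANNTTC match. *dnj-28*, a J-domain co-chaperone gene, had 168 and 160.0 at its promoter with *supr-1*, and *hsp-60*, the mitochondrial chaperonin gene, had 187 and 96.7 opposite Y22D7AL.10.

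The chaperone list had 13 genes with a member of the 39 that could have one, 33.3%, beside 7.10% of all such genes. The lowest values were 47.5 in replicate 1 (*cct-7*, a subunit of the cytosolic chaperonin) and 10.1 in replicate 2 (*pfd-1*), where *dnj-14* had no candidate. The median of the 13 was 58.9 in replicate 1 and 44.5 in replicate 2, under the medians of all members in both. The count of chaperone genes was thus high while their typical signal was not. GAANNTTC lay within 100 bp of the summit in 5 of the 13 (38.5%) and in 31 of the 197 other members (15.7%). The F44E5 pair has clone names and is among the 197.

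Cytosolic ribosomal protein genes had a share nearly as high as that of the chaperone list, a larger count and higher signal. Of the 54 that could have a member, 16 did (29.6%), in 15 regions with medians of 134 in replicate 1 and 75.6 in replicate 2. *rpl-20*, opposite Y17G9B.5 (IV, 4749998 to 4750152), had 233 and 141, *rpl-15*, opposite K11H12.8 (IV, 654860 to 654998), had 229 and 90.9, and *rpl-43*, opposite Y48B6A.1 (II, 14154487 to 14154584), had 131 and 116. Replicate 1 was higher in all 14 regions with a value in both, by a median of 1.01 on the log2 scale (0.171 to 1.69), beside 0.485 for all members. Where 1 gene of the pair was on the list, the summit was nearer to the ribosomal gene in 4 of 14. *rpl-39* and *rps-30* face each other 499 bp apart and had only 69.2 and 21.5, in neither replicate list.

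Other genes of protein synthesis were present at lower signal. Translation initiation and elongation factors had 6 of 23, among them *eef-1G* (91.2 in replicate 1 and 59.5 in replicate 2), *eif-3.E* (104 and 45.3) and *iff-2*, an eIF5A gene (150.2 and 41.7). In 5 of these 6 the summit was nearer to the factor gene. Mitochondrial ribosomal proteins had 5 of 31, led by *mrps-35* (153 and 77.1) in a gap of 156 bp with *sws-1*, and aminoacyl-tRNA synthetases had 2 of 15, *ears-2* and *mars-1* (43.2 and 21.8). Shares were 26.1% for the factors, 16.1% for the mitochondrial proteins and 13.3% for the synthetases, beside 7.10% of all genes that could have a member.

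Genes of RNA processing and the nuclear envelope included several top regions. *snr-1*, an Sm protein gene of the spliceosome, shares IV, 17087476 to 17087635, with *snx-13*, a sorting nexin gene, and had 190.1 in replicate 1 and 222 in replicate 2. *prp-19*, another spliceosome gene, had 256 and 119.9 at a promoter facing K10D2.5 and *emb-1*, which codes for a subunit of the anaphase-promoting complex. Its summit was 31 bp from the K10D2.5 end and 644 bp from its own. The splicing list as a whole had 5 of 36 genes, with *sftb-6* at 34.7 and 37.8. Of the nuclear pore genes 2 of 17 had a member: *npp-6* with *spd-5*, a centrosome scaffold gene (I, 5176295 to 5176491, 256 and 152), and *npp-12* (69.0 and 58.2). Shares were 13.9% for splicing and 11.8% for the nuclear pore, beside 7.10% of all genes that could have a member, and rest on few genes.

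The remaining lists differed in how many of their genes had a member. Membrane traffic had 9 of 52, with *vps-51*, a tethering complex gene (147 and 194), and *rab-7*, a late endosome GTPase gene (179.7 and 112.1), after *snx-13*. Respiratory chain and ATP synthase had 5 of 27 (*atp-1* with 119.7 and 108, *atp-5* with 53.9 and 58.4, *mev-1* with 56.0 and 40.9). Replication and repair had 5 of 32 (*lig-4* at the strongest region, *mcm-10* with 76.3 and 77.9, and *orc-2*, whose only region is the weak neighbour at *cyn-4* and *copz-1* with a series signal of 3.06). These 3 lists had shares of 17.3%, 18.5% and 15.6%, above the 7.10% of all genes that could have a member.

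RNA polymerase II, Mediator and Integrator had 4 of 29 (*taf-7.2* with 61.6 and 49.8, *mdt-18* with 47.0 and 43.0, *mdt-19*), and the proteasome had 3 of 24 (*rpn-3* with 73.9 and 49.7, *rpt-4* with 39.6 and 36.6, *pbs-1*). These shares, 13.8% and 12.5% beside 7.10% of all genes that could have a member, rest on few genes. Large families of regulated genes were nearly empty: chemoreceptors had 3 of 301 (*srh-89* with 64.5 and 59.5, *sri-5* with 69.5 and 54, *srh-16* with 49.6 in replicate 1 only), F-box and MATH-BTB genes 2 of 120 (*fbxa-90* with 109 and 55.9, *fbxb-85* with 45.1 and 39.6), and nuclear hormone receptor and homeobox genes 2 of 57 (*ceh-38* with 33.6 and 26.1, *nhr-47* with 58.6 and 24.5). Histones had 0 of 66, C-type lectins 0 of 84, ubiquitin ligation 0 of 30 and the vacuolar ATPase 0 of 8. Beside a share of 7.10%, an empty list of 8 genes says little. Histone genes come in near-identical copies, at which short reads can be hard to place. Whether this bears on the histone count was not tested. A chemoreceptor beside a widely used gene cannot be told apart from its neighbour here.

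Muscle genes, where UNC-98 acts at the membrane, rarely stand in such pairs. Of 34 contraction genes 4 could have a member and 1 did, *pat-10*, the troponin C gene, with 26.6 in replicate 1 and 46.5 in replicate 2 opposite C46H11.6, in neither replicate list. Of 27 attachment genes 1 could and 0 did. Beside the 7.10% of all genes that could have a member, counts from 4 genes and 1 gene say little. Any summit in a promoter window was seen at 7 of the 34 contraction genes (20.6%) and 4 of the 27 attachment genes (14.8%). Among all protein-coding genes that share was 3.98%. *unc-98* and *unc-119*, the genes on the transgene, have no promoter shared by both strands and no region. In 5 members a gene on each strand was on a list, namely *snx-13* with *snr-1*, *hsp-110* with *rpn-3*, *eef-1A.1* with *rfc-4*, *dnj-19* with *nhr-47*, and *rpl-39* with *rps-30*.

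**Figure D4:**
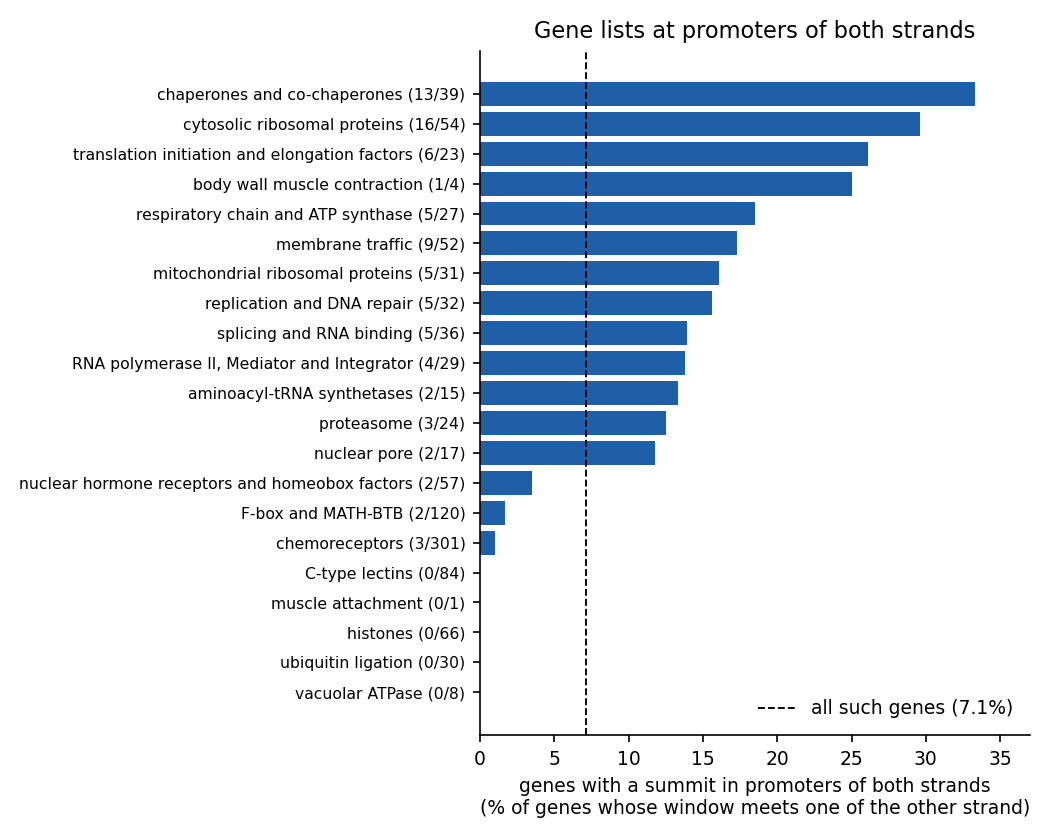
Percentage of the genes of each list that have a member, over the genes whose promoter window meets one of the other strand, with the counts beside each name. The dashed line is the 7.10% of all such genes; chaperones (33.3%) and cytosolic ribosomal proteins (29.6%) are the longest bars.

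The region with the highest mean rank over the replicates was that of *cux-7* with C07H6.2 and *lig-4*, the DNA ligase gene of end joining (III, 7520750 to 7520953), with 281 in replicate 1 and 263 in replicate 2. Its summit lay 4 bp inside the *cux-7* transcript, in an exon. F56G4.6 with *wbp-4* (I, 11374361 to 11374562) had 259.7 and 249, and K01G5.10 with *tasp-1* (III, 10759165 to 10759364), the taspase gene, had 304 and 179. The replicates placed these 3 summits 15, 14 and 7 bp apart, close to or under the median of 16 bp over members, while those of *jmjd-1.2* and *nrde-2*, also among the strongest 10, were 36 and 43 bp apart.

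Other top regions paired genes of RNA silencing, chromatin and metabolism. *nrde-2*, of the nuclear RNA interference pathway, with *atad-3*, which codes for a mitochondrial membrane ATPase, had 213 and 132 in a gap of 1353 bp. *jmjd-1.2*, a histone demethylase gene, with F29B9.11 had 191 and 197, and *drr-2* with *set-16*, an MLL-type histone methyltransferase gene, had 167 and 117. *mex-1*, a zinc finger gene of the germline and early embryo, faces W03C9.5 across 1093 bp. *rab-7* is a second, farther minus-strand gene whose window holds the same summit. The other regions among the top 20 were *atx-2*, the ataxin-2 homologue, with *ecps-1*, then *sup-35* with Y48A6C.4 (156 and 114), and *ech-5*, an enoyl-CoA hydratase gene, with F56B3.11 (127 and 128).

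Genes of the cell cycle and of chromatin were seen often enough among the members to be counted; the 3 lists for this were written after the members had been seen, so their counts carry no weight as evidence. Of the DREAM complex, which represses cell cycle genes, 4 of the 5 genes that could have a member had one, beside 7.10% of all such genes. *lin-35*, the Rb homologue, had 147 in replicate 1 and 194 in replicate 2 opposite *vps-51*, and *lin-54*, the DNA-binding subunit, had 175 and 73.5 opposite *rpl-12*. *efl-1*, an E2F homologue, had 109 and 55.9 opposite *fbxa-90*, and *lin-53*, the RbAp48 homologue, had 88.6 and 55.3 opposite *nra-2*. All 4 were in both replicate lists.

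Histone modification genes had 11 of 20, among them *set-21* with *rpl-7A* (189.9 and 80.3), *hda-11* with C35A5.8 (72.2 and 110.0) and *set-26* with *tsr-2* (85.1 and 56.8). Chromosome segregation genes had 12 of 52, among them *ska-3*, a kinetochore gene, with *rps-12* (142 and 76.0), *smc-3*, a cohesin gene (111 and 90.6), and *hcp-6*, a condensin gene, with *let-630* (103 and 65.5). Both replicate lists held 5 of the 11 and 5 of the 12. The shares of these later lists were 55.0% and 23.1%, beside 7.10% of all genes that could have a member. *lin-54*, *set-21* and *ska-3* each share the promoter with a ribosomal protein gene, and the signal cannot be assigned to either gene of a pair.

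The sequence at the summits was richer in G and C than its surroundings. Mean GC content was 45.9% and 45.4% in the 50 bp on either side of the summit, and 32.4% and 31.3% at 100 to 150 bp. Promoters of a single strand had 47.0% and 47.5% at the summit but 37.1% and 36.0% at 100 to 150 bp. The dip beside the summit was thus deeper at shared promoters. The profiles follow the plus strand and not the direction of each gene. Summits lay between genes for 175 of 210 members and for 274 of 382 regions at promoters of a single strand. Whether either bears on the dip was not tested. Over 200 bp the median was 41.0%, beside 43.0% at promoters of a single strand, 45.5% outside promoters and 33.0% in the middle of 2050 divergent gaps without a region. The files state no correction for GC content, which also affects sequencing yield; its part in these differences was not tested.

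**Figure D5:**
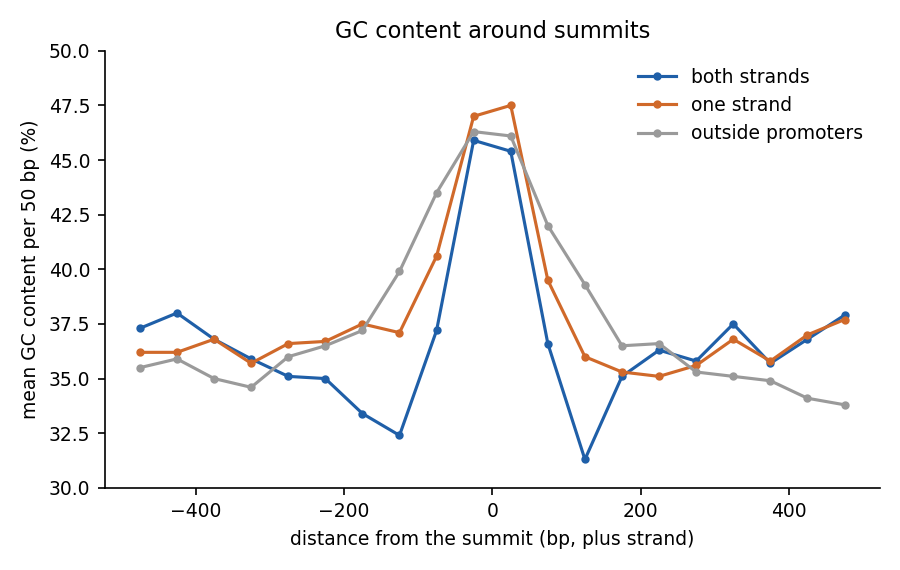
Mean GC content in percent per 50 bp against distance from the summit in base pairs on the plus strand, for shared promoters, promoters of a single strand and regions outside promoters. All 3 peak at the summit at 45 to 48%, and shared promoters alone fall below 33% at 100 to 150 bp.

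Motif matches were counted in the 200 bp around the summit, on both strands and with exact letters (N is any base). GAGAGA was in 22.9% of members, 31.9% of promoters of a single strand and 12.2% of the middles of divergent gaps without a region. TGCGTCTC was in 9.52%, 12.8% and 1.66%. In the 200 bp of highest GC content of each empty divergent gap, whose median GC was 41.5%, the shares were 20.7% for GAGAGA and 5.37% for TGCGTCTC. The difference from empty gaps was thus largely gone for GAGAGA and smaller for TGCGTCTC at like GC content. TGCGTCTC holds GTCTC and can overlap GAGAGA on the other strand, as it does at *set-16*.

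Position showed the same sequences near the summit. TGCGTCTC matched 0.754 times per kb within 50 bp of a member's summit and 0.0714 times at 200 to 500 bp, and GAGAGA 2.17 and 0.50 times. At promoters of a single strand the values were 0.985 and 0.0567, and 3.91 and 1.19, so the rise was not particular to members. Other GC-rich words rose at members' summits too: CGCGCG (0.707 and 0.0397), GGGCGG (0.471 and 0.111) and TTCCCGC (0.330 and 0.0635). GAANNTTC, at 17.1% of members, 11.0% of promoters of a single strand and 13.9% of empty gaps, had 0.943 and 0.865 matches per kb, so it was no denser at the summit. AT-rich words were less frequent than in the middles of empty gaps: TATAAA 15.2% against 27.5%, TGATAA 11.4% against 19.4%, TTTTTTTT 16.2% against 23.4%, and TTTCAG, the splice acceptor sequence, 26.7% against 31.3%. In the windows of highest GC content the shares were 17.5% for TATAAA, 15.8% for TGATAA, 12.7% for TTTTTTTT and 25.8% for TTTCAG, so TTTTTTTT and TTTCAG were then at least as frequent in members. TTTTTTTT had 2.64 matches per kb within 50 bp of the summit and 1.63 at 200 to 500 bp, with overlapping matches in 1 run counted each. The 56 matches within 50 bp came from few members, as the 100 bp around the summit held TTTTTTTT in 10 of 210 (4.76%). At promoters of a single strand the densities were 0.907 and 2.50. Of the 15 regions with a ribosomal protein gene 0 held TGCGTCTC and 1 held GAGAGA, beside 9.52% and 22.9% of all members. Of the 13 chaperone regions 0 held TGCGTCTC and 3 held GAGAGA. These counts are small, and no difference was tested.

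The place of the summits in the annotation was between genes for 175 members, in an exon for 24 and in an intron for 11. A non-coding gene lay within 200 bp of 33 members (15.7%), beside 20.5% of all regions. These included a tRNA gene at 4 members and a snoRNA gene at 4, beside 45 and 29 of all 937 regions. A gene annotated only as ncRNA lay near 26 members, beside 147 of all regions.

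The window edge divides like from like. The members nearest to it, each 7 bp inside, were *anmt-2* with *nfm-1* (53.1 and 38.3) and R107.5 with *cls-2* (71.1 and 38.4). Just outside, by 7 and 9 bp, were C50B6.3 (99.2 and 75.8) and *kars-1* (125 and 106). Within 100 bp of the edge, 10 regions were inside, with medians of 53.7 and 46.6, and 14 outside, with 56.0 and 39.2. At the IDR threshold, the members just inside a −log10 of 2.00 were *pbs-1* with K08D12.3 and *agt-2* with F09E5.3 (70.8 and 28.6). The candidates at shared promoters just outside were *alg-5* with histone genes, at 1.99 and a signal of 39.4 in replicate 1, and ZK632.4 with *gtap-2*, at 1.99 and 46.9 in replicate 2.

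The ranked lists, which reach below the threshold, held many more candidates at shared promoters, 3097 in replicate 1 and 3290 in replicate 2. Past the threshold were 5.1% and 3.07% of them, beside 0.603% and 0.415% of all candidates. Their median signals, 13.8 and 13.6, were close to the 12.7 of all candidates in each replicate, so the typical shared promoter candidate had a signal near that of the list as a whole.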

How the data were processed

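ChIP-seq of UNC-98::GFP in starved L1 larvae was used as the authors' deposited lists of regions, per replicate and for the series, on build ce11. The deposited signal is a score at a scale that is not stated. The ranked lists also hold the deposited −log10 of the IDR, and the lowest value in each of the 4 thresholded lists is 2.00, an IDR of 0.01. Neither aligner nor peak caller is given in the sources used here. Depth is unknown.

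Regions were joined in the order given in the report, where 1 bp of overlap counted, and summits were set against protein-coding transcripts of Ensembl release 115 (Python 3.11.15, pandas 2.3.3, numpy 2.4.6, scipy 1.17.1). A replicate's signal for a region was that of the region with most shared bases in its ranked list. A gene could have a member when its window met a window of the other strand. Sequence came from RefSeq's copy of the assembly. The rule was tested on simulated summits. No test was made: there is 1 group, and the members, the 21 gene lists and the 17 motifs were chosen with earlier results of these data known. Intervals are 95% Wilson intervals.

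Named are the genes of the 20 members with the highest mean percentile in both ranked lists, up to 3 of each gene list, the 3 highest and 3 lowest replicate ratios, pairs with both genes listed, the 3 widest and 3 narrowest gaps, *unc-98* and *unc-119*; genes at the thresholds, on X, with second regions, overlapping 5′ ends or on the 3 later lists were chosen after their values were seen, as were single examples that extend a listed group.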

Additional observations from a re-analysis of the deposited data

How the results depend on the processing

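The 6 main quantities (the number of shared promoter regions, their share of promoter regions, the share with the summit between the facing ends, the share of divergent gaps with a region and both median signals) were recomputed under 11 alternatives. Of the 64 values obtained, 43 stayed within the spread set for them and 21 moved. None has a direction to reverse. The share of divergent gaps uses summits and gaps between genes, not promoter windows. Both other promoter windows, and the most upstream 5′ end of each gene, therefore left it at 8.50% by construction. These unchanged values are among the 43 and say nothing about the stability of that share. The number of regions fell to 86 (41.0% of 210) at an IDR of 0.001 and to 114 (54.3%) in the upper part of each list by signal. With a replicate left out it was 48.1 to 75.2% of 210, the lower value from the replicate 2 list alone. Their share of promoter regions was 29.9% with windows of 500 and 200 bp, 43.9% with 2000 and 500 bp, 42.2% at an IDR of 0.001, 41.8% in the upper part and 38.8 to 39.8% with a replicate left out. The share between facing ends was 94.1 to 94.3% with a replicate left out. Divergent gaps with a region were 6.93% in the conservative list, 7.21% in the second series list, 3.45% at an IDR of 0.001, 4.65% in the upper part and 4.09 to 6.65% with a replicate left out. Median signals rose to 109 in replicate 1 and 80.4 in replicate 2 at an IDR of 0.001 and to 96.6 and 73.1 in the upper part; in the list of a single replicate they were 82.5 and 76.8. Fewer regions enter under the stricter settings by construction; for the other shifts the cause was not tested. Leaving out the 4 regions that share a neighbour's replicate regions, an alternative chosen after seeing the data like the GC-rich gap windows, left 206 regions (98.1% of 210), 35.7% of promoter regions, 90.8% between facing ends, 8.46% of divergent gaps, and median signals of 69.3 and 48.6. Of 36 further values, mostly motif shares in windows of 100 and 400 bp, 22 moved. No paired analysis was possible because the 2 replicates form 1 group. Without read counts, a region absent from a list may be below its threshold.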
